A study of Mus musculus with 7 samples.

Results

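The comparison here is between an early and a late start of an antibody that blocks ICOSL, made in mouse spleen cells during acute graft-versus-host disease. Of the 7 arrays of the series, 4 were compared, namely the 2 arrays labelled for anti-ICOSL mAb from day 0 and the 2 labelled for anti-ICOSL mAb from day 3. They were chosen by their titles alone, and all 22626 probe sets that are not manufacturer controls were read. All recipients were female C57BL/6 mice aged 9 to 12 weeks that had been irradiated with 10.0 Gy. The mice of both antibody groups were given splenocytes of the allogeneic strain C3H/HeN between 4 and 6 h after irradiation. They received 500 µg of the antibody into the peritoneum on the starting day and then 200 µg every other day. Spleen cells of every group were taken on day 4, so the late group had its starting injection only on the day before harvest. The series also holds 2 arrays of allogeneic recipients given an isotype antibody and 1 array of a syngeneic transplant. Their values are printed as context and they entered the fit only for its estimate of spread.

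ICOS is a receptor of the CD28 family that appears on T cells after activation, and ICOSL, its ligand, is found on B cells, dendritic cells, macrophages and some non-immune cells. Signals through ICOS support cytokine production by helper T cells and the help that follicular T cells give to B cells during germinal centre reactions and class switching. In graft-versus-host disease, donor T cells expand in the spleen before they enter the target organs. An antibody present from the transplant covers the priming of donor T cells, whereas a late one meets cells that are already activated.

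RNA of several mice was combined before it was hybridised onto 2 arrays per allogeneic group. The p-values below therefore measure only the spread between arrays, which may be technical. Values are MAS5 signals, a linear brightness that the authors had scaled to a common trimmed mean of 500.18 to 500.19 units per array. Differences are given as day 0 minus day 3 on the log2(signal + 50) scale, with the standard error (SE) of limma's fit and p-values adjusted by Benjamini-Hochberg over all probe sets. The offset of 50 understates the difference of dim genes. Median signals of 156.3 and 163.7 units (day 0) compare with 161.6 and 174.5 (day 3). For Gapdh, the signal of the 3' control over that of the 5' control was 0.794 and 0.821 after the early start but 0.838 and 0.865 after the late one, so it was apart between the groups. The same ratio for Actb was 1.02 and 0.982 against 0.967 and 0.991, and these overlapped. The part of RNA integrity in the differences below was not tested. The labelled cell type, splenocytes, was borne by high signals of T cell genes (Cd3d 7209 to 8169 units on the 4 arrays) and B cell genes (Ms4a1 3143 to 4599 units).

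No gene passed the test between the 2 starts, and the largest differences among bright probe sets came from Igha and haemoglobin genes on the lower side and from Lyz1 and Ccl6 on the higher side. In limma's moderated fit, none of the 22626 probe sets (0.0%) passed an adjusted p of 0.05, and the smallest adjusted p was 0.271. An unadjusted p under 0.05 was reached by 1345 probe sets (5.94%). With 2 arrays against 2, an exact permutation test of a single gene cannot go below a two-sided p of 0.333. With limma's trend and robust options 8 probe sets passed (0.0354%), and after a filter that kept the brightest 9051 probe sets 7 passed (0.0773%). The 7 were among the 8, and both sets hold probe sets of Igha, the haemoglobin genes and Lyz1, with Ccl6 as the eighth.

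By size, 228 probe sets (1.01%) were at least 2-fold apart with no overlap of the arrays. Over all probe sets, 47.4% were higher on the day 0 arrays at any size. Of the 228, 87 (0.385%) were higher on the day 0 arrays and 141 (0.623%) were lower. Leaving out an array loosens the condition of no overlap, and the count was then 482 without the day 0 array 1, 735 without the day 0 array 2, 739 without the day 3 array 1 and 502 without the day 3 array 2. The split also depended on the scaling, at 111 higher and 104 lower after quantile normalization and 123 higher and 97 lower after median centring. Most of the 228 were dim. Below a mean of 100 units, 134 of 9145 probe sets were apart between the groups, and 754 differed by at least 2-fold between the 2 day 0 arrays themselves. At 1000 units or more, 13 of 3609 probe sets (0.36%) were apart, 4 higher and 9 lower on the day 0 arrays. In that bright range 15 probe sets differed 2-fold between the early arrays, and 3 did between the late ones. The counts within a group compare single arrays and carry no condition of overlap, whereas those between groups compare means. The 2 kinds of count are therefore not directly comparable.

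**Figure D1:**
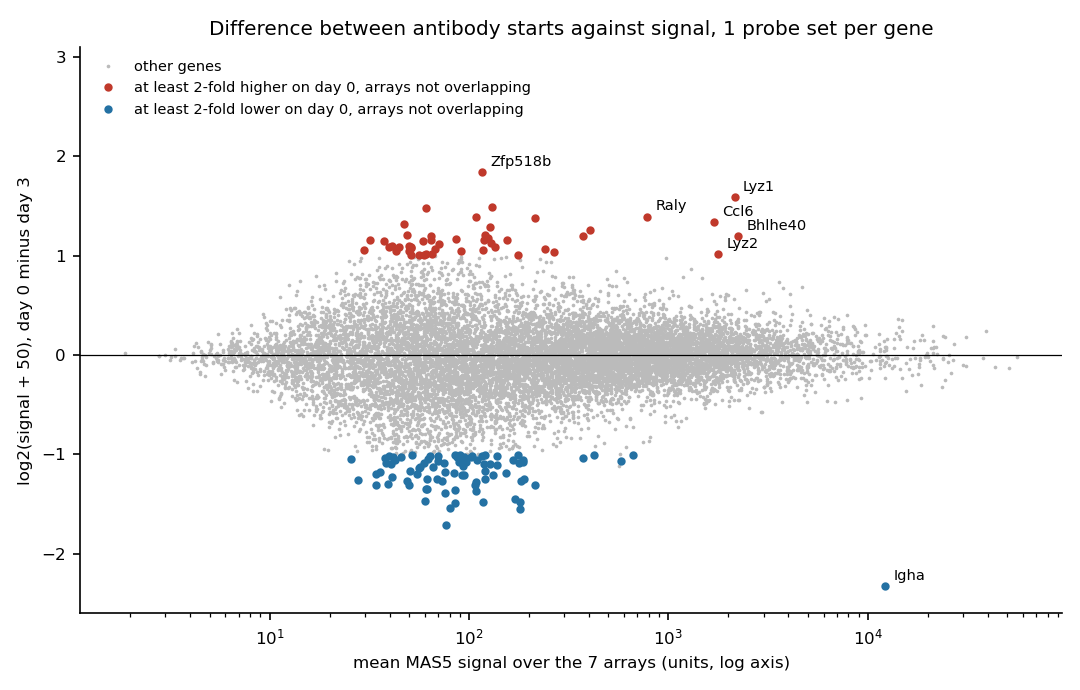
Difference between day 0 and day 3 on the log2(signal + 50) scale (vertical axis) against the mean MAS5 signal over the 7 arrays (horizontal log axis), 1 point per gene for 12393 genes. Red and blue points are the 49 genes at least 2-fold higher and the 83 genes at least 2-fold lower on the day 0 arrays without overlap; most lie below 300 units, and Igha, Lyz1, Lyz2, Ccl6 and Bhlhe40 stand out among bright genes.

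**Figure D2:**
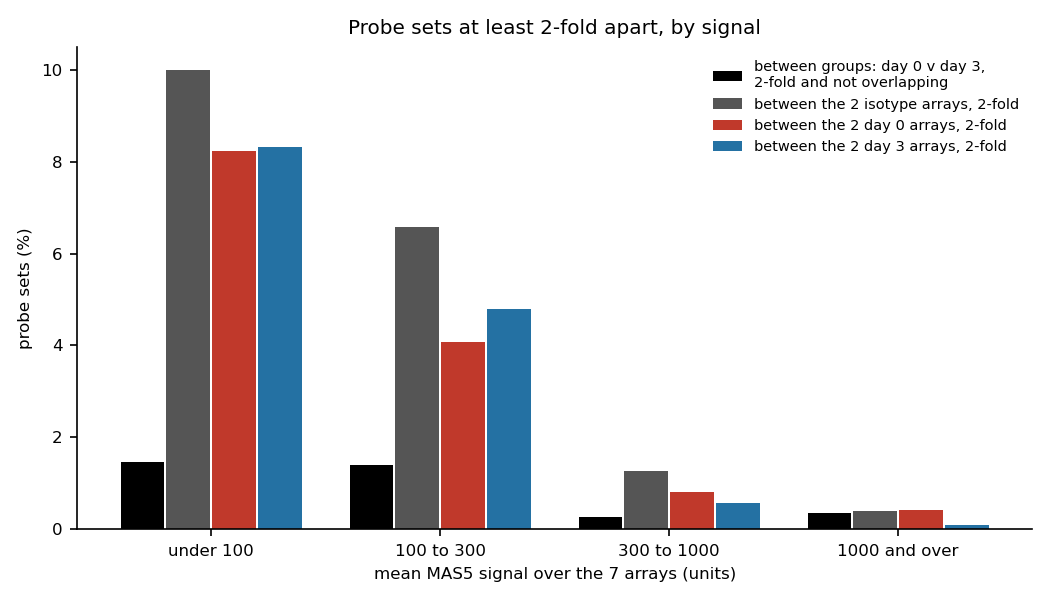
Share of probe sets (percent) at least 2-fold apart in 4 ranges of mean MAS5 signal. Black bars show day 0 against day 3 with arrays not overlapping, and the other bars show the 2 arrays of 1 group against each other. These conditions differ, so the black bars are not directly comparable with the others. The shares within a group fall from range to range, between the 2 day 0 arrays from 8.24% below 100 units to 0.416% at 1000 units or more. Between the groups the 4 shares, from dim to bright, are 1.47%, 1.39%, 0.26% and 0.36%.

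The 13 bright probe sets come from few genes. The 9 lower on the day 0 arrays are 3 probe sets of Igha, 4 annotated to several haemoglobin genes, 1 of Ppp2r1a and 1 for which the annotation gives no gene symbol. The 4 higher are 1 each of Lyz1, Lyz2, Ccl6 and Bhlhe40. This set was gathered after the values were seen.

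Igha, the constant region of the immunoglobulin A heavy chain, showed the widest difference of any gene. Its probe set 1425763_x_at read 2698 and 2977 units on the day 0 arrays against 15227.5 and 13681 units on the day 3 arrays. Both late arrays were far above both early ones. On the log2 scale the day 0 arrays were lower by 2.33 ± 0.21 (SE, n = 2 arrays a group), a 5.02-fold difference, with an adjusted p of 0.271 in limma's fit. The adjusted p was 0.000623 with the trend and robust options and 0.00247 after the brightness filter. A second probe set, 1421653_a_at, read 1814 and 1704 units against 10039.6 and 8144, a difference of -2.33 ± 0.26. The remaining probe set, 1429381_x_at, read 2507.6 and 1904 units against 10235 and 8148, a difference of -2.04 ± 0.22. The isotype arrays gave 2446 and 1788 units for the leading probe set, near the early start, whereas the syngeneic array gave 46619.6. In bulk spleen RNA, fewer cells of a type and less RNA per cell cannot be told apart.

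Other immunoglobulin and plasma cell genes had smaller differences. Among 38 further probe sets annotated to a single immunoglobulin gene, 13 were lower on the day 0 arrays without overlap, 2 were higher and 23 overlapped, with a median difference of -0.152. Over all 22626 probe sets, 20.0% were lower and 17.0% higher without overlap. These 38 were gathered after the values of Igha had been seen. Ighm, the mu heavy chain, read 27151 and 26074 units on the day 0 arrays against 24469 and 28898 on the day 3 arrays (1427329_a_at), a difference of 0.001 ± 0.19. Its brightest probe set, 1427351_s_at, differed by -0.13 ± 0.16. Of the 11 probe sets of Ighm, 7 were lower without overlap, 1 was higher and 3 overlapped; the less bright 1425247_a_at read 564.6 and 453.3 units against 744.0 and 901.3 (-0.64 ± 0.19). Only 1 other immunoglobulin probe set was 2-fold apart, 1452536_s_at of Igkv9-120, a kappa variable gene, at 551.7 and 623.1 units against 1401.5 and 1118 (-1.03 ± 0.21). The other probe sets of that gene did not share the size: 1460423_x_at differed by -0.24 ± 0.19 and the dim 1427750_at by 0.92 ± 0.17. The lambda variable probe set 1430523_s_at of Iglv1 read 4194 and 4402 units against 5863 and 6115.5 (-0.47 ± 0.16).

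The gene lists used from here on were chosen with earlier results of these data known, so their counts are descriptions and not independent support. The plasma cell list had 8 of its 12 members measured. Of these, 4 were lower on the day 0 arrays without overlap and 1 was higher, with a median of -0.104 beside -0.023 over all genes. Among the 12393 genes, 20.4% were lower and 16.5% higher without overlap. Jchain, which links immunoglobulin A and M monomers, read 5439 and 5999 units against 6114 and 7318 (-0.23 ± 0.18). Xbp1, a transcription factor of secretory cells, differed by -0.15 ± 0.20 and Derl3, part of the secretory quality control, by -0.20 ± 0.34. Irf4, Sdc1 and Prdm1, which mark plasma cell differentiation, overlapped between the groups. The member that was higher, Tnfrsf17 (the survival receptor BCMA), was dim at 127.1 and 109.5 units against 34.4 and 52.0, a difference of 0.86 ± 0.18.

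**Figure D3:**
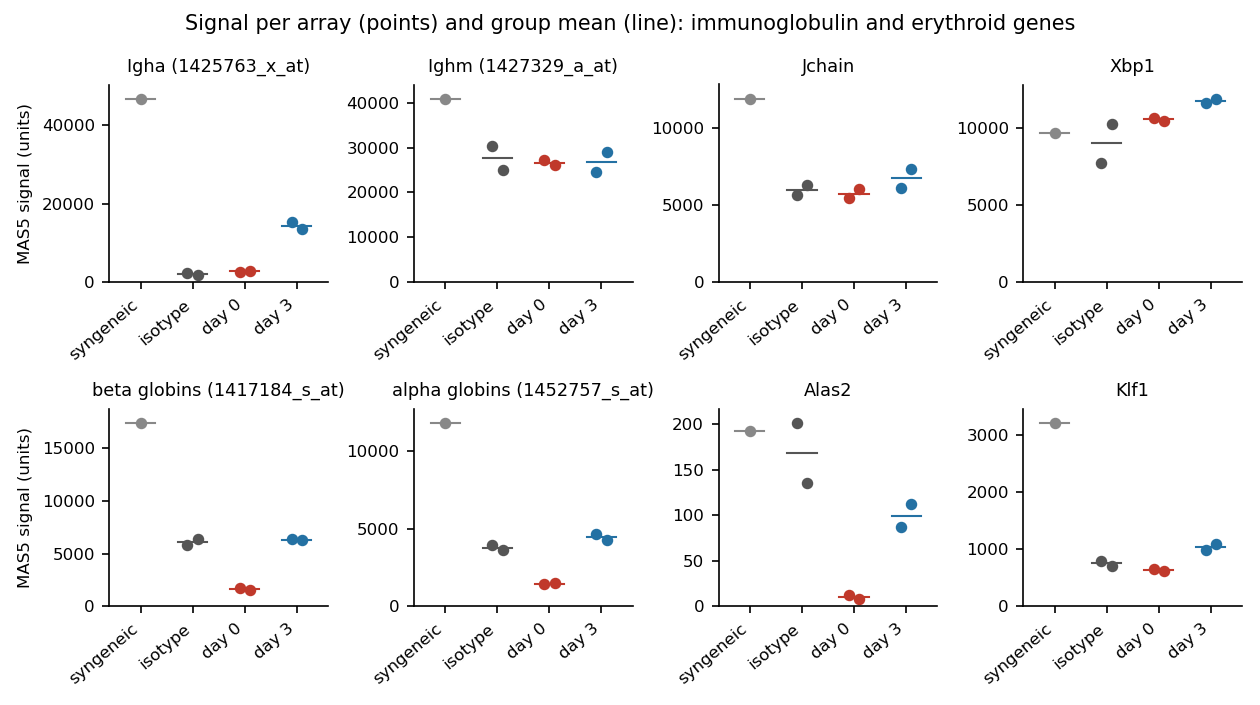
MAS5 signal (units, linear axes from 0) of 8 immunoglobulin, secretory and erythroid probe sets; each point is 1 array and each line is a group mean. Igha is high on the day 3 arrays and the syngeneic array. The Ighm probe set plotted overlaps between day 0 and day 3, but 7 of the gene's 11 probe sets were lower on day 0 without overlap. Jchain and Xbp1 are slightly lower on the day 0 than on the day 3 arrays. Alas2 and the 2 globin probe sets plotted are lowest on the day 0 arrays.

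Haemoglobin and most erythroid genes were lower after the early start. Erythroid precursors make haemoglobin from alpha and beta globin chains and haem, under the transcription factors GATA1, TAL1 and KLF1. The mouse spleen is a site of red cell formation, which expands under stress. The donor cells had been depleted of red blood cells, whereas a depletion of the harvested spleen cells is not given in the sources used here.

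The bright globin probe sets match several genes of a cluster and cannot be assigned to a single one. The beta chain probe set 1417184_s_at read 1707 and 1551 units on the day 0 arrays against 6367 and 6280.5 on the day 3 arrays. It was lower by 1.93 ± 0.17 (SE, n = 2 arrays a group), a 3.8-fold difference, with an adjusted p of 0.271 in limma's fit and 0.000391 with the trend and robust options. The isotype arrays, at 5849 and 6418 units, lay beside the late start. The alpha chain probe set 1417714_x_at read 445.5 and 504.8 units against 1874 and 1826 (-1.86 ± 0.17). On the syngeneic array it read 279.6 units, whereas 1452757_s_at read 11809.8 there. The alpha chain probe set 1452757_s_at read 1429 and 1494 units against 4632 and 4271 (-1.57 ± 0.17). Another alpha chain probe set, 1428361_x_at, read 937.7 and 1152 units against 2545 and 2245 (-1.16 ± 0.20). All 4 had the day 0 arrays below the day 3 and the isotype arrays without overlap.

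Of 26 genes in the erythroid list, 20 were measured, and 16 of them were lower on the day 0 arrays without overlap; none was higher without overlap. The median difference was -0.473, beside -0.023 over all genes, of which 20.4% were lower without overlap. Leaving out single arrays gave medians of -0.567 to -0.431. No member passed the adjusted threshold, and 7 had an unadjusted p under 0.05, all of them lower. Such a p was reached by 5.5% of all genes in either direction, and by 396 of the 12393 genes on the lower side. The summed signal of the list was 12669 and 12963 units on the day 0 arrays against 17053 and 18881 on the day 3 arrays. The isotype arrays gave 14121 and 14652 units and the syngeneic array 35714.

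Of the lineage's transcription factors, Klf1, Tal1 and Gata1 were lower after the early start and Nfe2 overlapped. Klf1, which switches on globin and haem genes, read 649.4 and 617.6 units against 978.1 and 1097 (-0.67 ± 0.17). Tal1 read 184.0 and 257.4 units against 366.2 and 540.9 (-0.89 ± 0.25). Gata1 read 224.5 and 229.1 units against 319.4 and 402.8 (-0.56 ± 0.18). The receptor for erythropoietin, Epor, read 321.5 and 258.3 units against 453.2 and 489.0 (-0.62 ± 0.19). In none of these did an early array reach a late one. The isotype arrays lay nearer the early start for Gata1 (243.4 and 234.2 units), Tal1 (306.0 and 275.6 units) and Klf1 (799.3 and 711.0 units).

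Genes of haem synthesis and of the red cell membrane followed. Alas2, the erythroid enzyme that starts haem synthesis, read 12.7 and 8.0 units on the day 0 arrays against 86.8 and 112.0 on the day 3 arrays. The isotype arrays read 200.9 and 135.0 units. Its difference of -1.30 ± 0.22 depended on the offset, at -2.13 with 16 and -0.85 with 100. Ermap, an erythroid membrane protein, read 478.8 and 548.5 units against 875.6 and 822.1 (-0.68 ± 0.17). Slc4a1, the anion exchanger band 3, differed by -0.84 ± 0.38. Fech, which inserts iron into haem, differed by -0.73 ± 0.31, but its probe sets did not share a direction. Car2, a carbonic anhydrase, was the brightest of the group at 3224 and 2870 units against 4162 and 4327.5 (-0.47 ± 0.17). Cpox, Sptb, Tfrc, Rhag, Car1, Urod and Ank1 were lower without overlap by 0.23 to 0.50. Xpo7, Nfe2, Epb42 and the dim single-gene probe set of Hba-a1 overlapped.

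The promoters of the 3 erythroid genes with the smallest p-values are shown because the members were low together. Each is the stretch of 250 bases before the RefSeq start site (build GRCm38.p6), 5' to 3' on the gene's strand. Capitals mark a match to AGATAA or TGATAA, the core bound by GATA factors, read on either strand; both forms share their last letters. Alas2 lies at chrX:150547167-150547416 on the plus strand, Klf1 at chr8:84901732-84901981 on the plus strand and Ermap at chr4:119189996-119190245 on the minus strand.
Alas2: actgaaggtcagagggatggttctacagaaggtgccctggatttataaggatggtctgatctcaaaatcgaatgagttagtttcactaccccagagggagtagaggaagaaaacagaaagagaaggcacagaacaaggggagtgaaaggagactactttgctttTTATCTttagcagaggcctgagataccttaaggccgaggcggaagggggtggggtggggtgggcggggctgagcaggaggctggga
Klf1: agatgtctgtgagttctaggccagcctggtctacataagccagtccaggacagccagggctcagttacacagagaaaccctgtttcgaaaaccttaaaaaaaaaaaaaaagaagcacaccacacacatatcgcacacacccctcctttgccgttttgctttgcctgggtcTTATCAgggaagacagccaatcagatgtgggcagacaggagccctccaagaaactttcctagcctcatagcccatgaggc
Ermap: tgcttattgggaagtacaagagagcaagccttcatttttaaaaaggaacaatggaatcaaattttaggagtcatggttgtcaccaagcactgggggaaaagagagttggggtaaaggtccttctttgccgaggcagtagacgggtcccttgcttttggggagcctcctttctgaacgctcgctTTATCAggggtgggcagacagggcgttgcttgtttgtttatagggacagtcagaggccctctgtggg

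Each of the 3 windows holds 1 match, starting 86, 80 and 67 bases before the start site of Alas2, Klf1 and Ermap. Over the erythroid list, 13 genes had a window, and 9 of their 15 windows held a match. Of all 32851 windows of this length in the table, 5452 (16.6%) did. The motif CCNCNCCC, a form bound by KLF factors, was in 7 of the 15 erythroid windows (46.7%) and in 45.9% of all windows, and 4 matches were in that of Alas2. A match is a string of letters and not a measured binding site. The share of matches depends on which genes were listed and would be the same whatever the arrays read. It therefore does not bear on the difference between the starts.

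Lysozymes, a pair of chemokines and some other myeloid genes were higher after the early start. Lyz1 and Lyz2 encode lysozymes, secreted by monocytes, macrophages and granulocytes. The probe set 1436996_x_at of Lyz1 read 2361.5 and 2011 units on the day 0 arrays against 789.5 and 601.5 on the day 3 arrays. The difference was 1.59 ± 0.21 (n = 2 arrays a group), with an adjusted p of 0.603 in limma's fit and 0.0121 with the trend and robust options. A second probe set of Lyz1 (1439426_x_at) read 436.5 and 438.9 units against 246.9 and 149.6 (1.00 ± 0.23), a dim remaining one overlapped, and the mean over the gene's probe sets was 0.94. Lyz2 read 1986.5 and 1904 units against 905.1 and 964.4 (1.02 ± 0.19, adjusted p 0.677). The suffix x of the brighter Lyz1 probe sets marks probes that can match more than 1 transcript, so their signal cannot be assigned to Lyz1 alone. The probe set without this suffix, 1450822_at, is the dim one that overlapped, at 76.1 and 129.2 units against 62.7 and 97.1 (0.22 ± 0.28). On the isotype arrays Lyz1 read 1631 and 1438 units and Lyz2 1259 and 1588, between the early and the late start.

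Ccl6 and Ccl9 are related chemokines of myeloid cells. Ccl6 read 2728 and 3043 units against 1122 and 1104 (1.33 ± 0.21, adjusted p 0.670 in limma's fit, 0.0479 with the trend and robust options). The late arrays lay beside the isotype arrays at 1351 and 989.0 units. A second probe set of Ccl6 read 349.5 and 379.5 units against 186.9 and 193.7. Ccl9 read 865.1 and 818.8 units against 477.5 and 527.2 (0.69 ± 0.17), and Ccl3 differed by 0.53 ± 0.23. Among 15 inflammatory chemokines, 4 were higher without overlap, none was lower, and 11 overlapped, Ccl2, Ccl4 and Ccl7 among them. The median of this list was -0.022, close to that of all genes, of which 16.5% were higher and 20.4% lower without overlap.

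Monocyte genes split into those that differed and those that did not. Of 20 measured, 9 were higher on the day 0 arrays without overlap and 1 was lower, F13a1, the clotting factor XIII subunit. The background among all genes is 16.5% higher and 20.4% lower. The list's median was 0.169. Fn1, fibronectin, read 1553 and 1759 units against 829.5 and 942.4 (0.87 ± 0.18), although the mean with its dim second probe set was only 0.17. Itgam, the alpha chain of CD11b, read 381.4 and 359.1 units against 242.6 and 212.6 (0.60 ± 0.17). Ccr2, the receptor by which monocytes leave the marrow, read 523.1 and 514.0 units against 341.3 and 325.8 (0.57 ± 0.16). The lysosomal protease Ctss differed by 0.45 ± 0.16. By contrast Csf1r, the receptor for macrophage colony-stimulating factor, read 2726 and 2703.5 units against 2834 and 2481, a difference of 0.03 with a 95% interval of -0.38 to 0.44. Cd14, Tyrobp, Fcgr1 and Cx3cr1 also overlapped.

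Granule genes gave a mixed picture of the same kind. Ngp, a neutrophil granule protein, read 3577 and 3490.1 units against 2174 and 2023 (0.74 ± 0.17). Lcn2, an iron-sequestering granule protein, read 1024 and 722.8 units against 455.5 and 371.2 (0.98 ± 0.23). S100a9 differed by 0.56 ± 0.17, whereas S100a8, which forms a dimer with it, read 3594 and 4077 units against 3596 and 3700 and overlapped (0.07 ± 0.17). Of 16 members, 6 were higher without overlap and 1 was lower (over all genes the shares are 16.5% and 20.4%). The early granule enzymes Elane, Mpo and Prtn3 overlapped. Ctsg, another granule enzyme of the list, was higher without overlap at 502.4 and 349.8 units against 341.5 and 196.7 (0.60 ± 0.28). The lower member was the dim Mmp8, at 70.2 and 14.7 units against 77.5 and 91.8 (-0.61 ± 0.32).

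Among macrophage products, the complement components C1qa, C1qb and C1qc differed by 0.36 ± 0.18, 0.61 ± 0.17 and 0.41 ± 0.17. C1qb read 1839.5 and 1833 units against 1215 and 1160.2. In the list of complement C1q and lipid handling, 7 of 13 members were higher without overlap and 2 were lower, Abcg1 and Lipa, with a median of 0.348. Among genes of alternative activation 7 of 12 were higher without overlap and none was lower, with a median of 0.199; over all genes the shares are 16.5% and 20.4%. Retnla, a secreted product of alternatively activated macrophages, read 307.6 and 397.9 units against 144.4 and 145.5 (1.04 ± 0.20). Arg1, the arginase of the same state, read 329.8 and 295.4 units against 304.0 and 332.0, with a difference of -0.02 whose sign was turned by median centring. The iron-recycling macrophages of the red pulp gave no common direction: 4 of 13 genes were higher and 1 was lower without overlap. Their transcription factor Spic overlapped at 314.3 and 235.3 units against 241.5 and 104.3 (0.60 ± 0.34). Vcam1, an adhesion molecule of these cells, differed by 0.34 ± 0.17, but another of its probe sets by -0.33 ± 0.20.

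Bhlhe40, a transcription factor used by activated T cells and macrophages, was among the bright genes that differed. It read 4055 and 3569 units on the day 0 arrays against 1390.1 and 1917 units on the day 3 arrays (1.2 ± 0.26, adjusted p 0.707 in limma's fit). The isotype arrays read 1753 and 2497 units and the syngeneic array 482.8. Alox15, a lipoxygenase of macrophages and eosinophils, read 564.7 and 461.2 units against 193.8 and 173.7 (1.26 ± 0.21). Both were named after their values were seen.

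**Figure D4:**
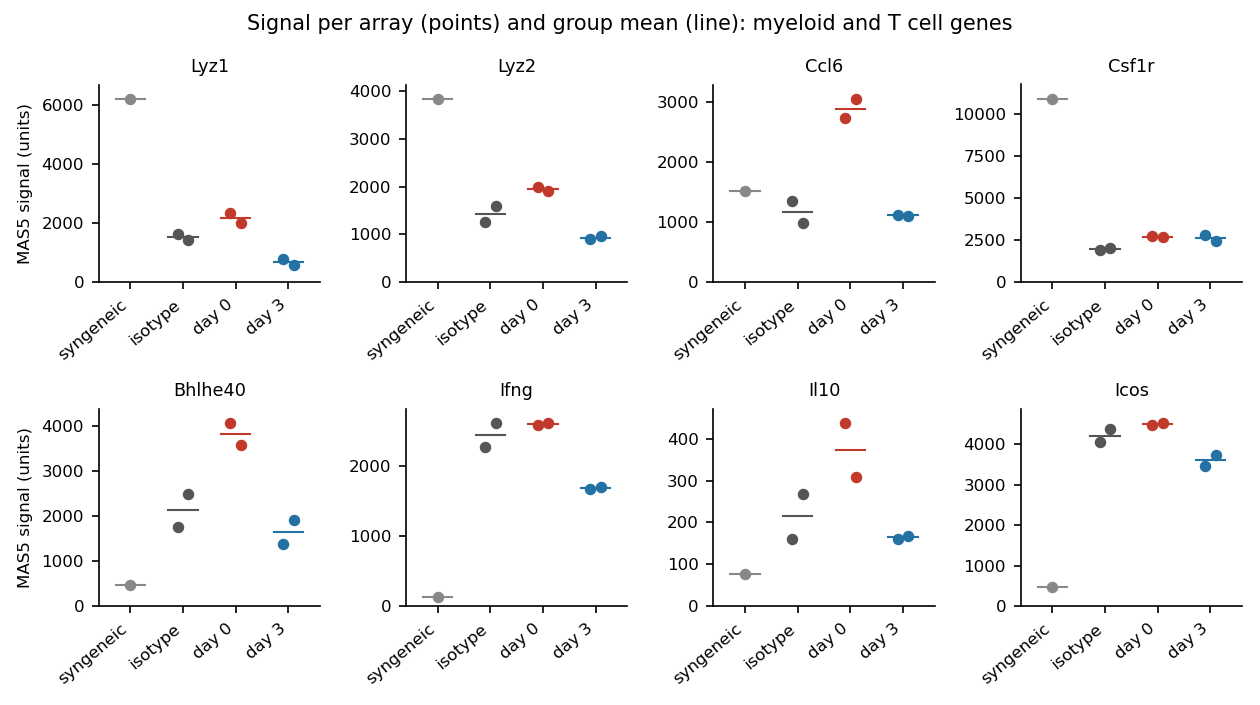
MAS5 signal (units, linear axes from 0) of 8 myeloid and T cell genes; each point is 1 array and each line is a group mean. Lyz1, Lyz2, Ccl6, Bhlhe40, Ifng, Il10 and Icos have both day 0 arrays above both day 3 arrays, and Csf1r does not.

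The list of helper T cell cytokines and their regulators leaned towards higher signals after the early start. Of 18 genes measured, 16 had a positive difference (46.4% of all genes did), 11 were higher without overlap and 1, Il5, was lower without overlap at signals under 50 units on these 4 arrays (over all genes the shares are 16.5% and 20.4%). The 11 include the regulators Stat4, Stat6, Il12rb2, Il18r1 and Maf, and the cytokines Il4, Il17a, Il21, Lta and Csf2 overlapped. Dim members are among the 11 too. Il2 read 70.3 and 35.8 units against 33.3 and 10.6, and Il3 read 19.6 and 13.1 units against 12.9 and 8.6. The median was 0.314, beside -0.023 over all genes, and it ranged from 0.198 to 0.453 when single arrays were left out. An unadjusted p under 0.05 was reached by 4 members, and none passed the adjusted threshold. Ifng, the main effector cytokine of type 1 helper and cytotoxic T cells, read 2586 and 2605.5 units against 1665 and 1698 (0.61 ± 0.17, adjusted p 0.722). The isotype arrays read 2262 and 2607 units, beside the early start, and the syngeneic array 131.7. Il10, a cytokine that restrains inflammation, read 436.9 and 309.5 units against 161.3 and 167.7 (0.96 ± 0.26). Tnf read 197.7 and 371.6 units against 177.8 and 54.1 (1.07 ± 0.43), and the isotype arrays read 383.5 and 346.2.

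Il13 differed by 0.99 ± 0.63 on signals that reached 26.2 and 167.7 units on the day 0 arrays, which is a wide gap between arrays of 1 group. Stat6, which carries signals of interleukin 4, read 1486 and 1289.6 units against 997.0 and 941.6 (0.49 ± 0.17). Il4 itself was dim and overlapped at 105.6 and 91.2 units against 69.7 and 91.5 (0.19 ± 0.18). Il21, the cytokine of follicular helper cells, overlapped at 425.8 and 472.0 units against 366.3 and 572.1. Among 10 genes of the follicular helper axis 2 were higher and 2 lower without overlap, and Bcl6 and Cxcr5 overlapped. The shares over all genes were 16.5% higher and 20.4% lower.

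The receptor that the antibody keeps from its ligand was itself measured. Icos read 4479 and 4518 units on the day 0 arrays against 3453 and 3743 on the day 3 arrays (0.32 ± 0.16, adjusted p 0.867). The isotype arrays lay between these at 4044 and 4383 units, and the syngeneic array read 480.3. Icosl overlapped at 414.8 and 444.3 units against 341.6 and 416.9, with a difference of 0.17 and a 95% interval of -0.32 to 0.65. Of 17 costimulatory genes, 7 were higher without overlap and 1, Cd80, was lower (over all genes the shares are 16.5% and 20.4%), with a median of 0.165. The tumour necrosis factor receptor family members Tnfrsf4 (OX40), Tnfrsf9 (4-1BB) and Tnfrsf18 (GITR) differed by 0.44 ± 0.17, 0.41 ± 0.20 and 0.33 ± 0.16. Cd28 overlapped (0.12 ± 0.22).

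Of 15 T cell identity genes, 6 were higher and 2 lower without overlap and 7 overlapped (over all genes the shares are 16.5% and 20.4%), with a median of 0.072. Thy1, Cd2, Zap70 and Cd6 were higher without overlap by 0.20 to 0.38. Cd3e, Cd3d, Cd3g and Cd247 of the T cell receptor complex overlapped, and Cd3e differed by 0.09 with a 95% interval of -0.47 to 0.64. Cd4 read 2025 and 1884 units against 1608 and 1375 (0.38 ± 0.17), and Cd8b1 read 1847 and 1737 units against 2086 and 2373 (-0.30 ± 0.18). Cd8a overlapped, and its sign changed when the day 3 array 1 was left out (0.18). Il7r, the receptor for a survival cytokine of resting and memory T cells, read 1606 and 1659 units against 956.8 and 913.4 (0.77 ± 0.17). Foxp3, the factor of regulatory T cells, overlapped at 84.0 and 69.9 units against 116.2 and 83.1.

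Cytotoxic effectors differed by small amounts. Gzmb, granzyme B, read 30362 and 29223 units against 24767 and 27947 (0.18 ± 0.18), and Prf1, perforin, overlapped at 2934 and 2852 units against 3106 and 2505. Of 20 effector genes 9 were higher and 2 lower without overlap (over all genes the shares are 16.5% and 20.4%), with a median of 0.087. Tnfsf10, the death ligand TRAIL, was dim at 140.2 and 184.0 units against 62.5 and 76.4 (0.82 ± 0.19). Among proliferation genes, 5 of 30 were higher and 5 lower without overlap, and the median was -0.02. B cell genes had 2 higher and 6 lower without overlap of 15, and Cd22 differed by -0.002 with a 95% interval of -0.39 to 0.39.

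Immediate early genes respond within minutes to signals or to handling of cells. Of 17, 11 were higher on the day 0 arrays without overlap and none was lower (over all genes the shares are 16.5% and 20.4%), with a median of 0.262. Dusp1, a phosphatase that shuts off MAP kinases, read 548.2 and 511.5 units against 239.2 and 310.5 (0.84 ± 0.19). Fos read 611.3 and 568.4 units against 395.5 and 450.4 (0.44 ± 0.17). Jun differed by 0.47 ± 0.18, although its second probe set gave -0.13 ± 0.22, and Atf3 by 0.82 ± 0.37. Egr1 differed by 0.08 ± 0.17, at 1158.5 and 1079 units against 1061 and 1049.

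Among 16 genes of heat shock and the unfolded protein response, none was higher without overlap and 6 were lower, with a median of -0.119. Over all genes the shares are 16.5% higher and 20.4% lower. Hspa1b, the inducible chaperone of the 70-kDa class, read 261.5 and 202.9 units against 427.8 and 473.7 (-0.83 ± 0.21), and the chaperones Dnajb1 and Hsph1 differed by -0.36 ± 0.18 and -0.32 ± 0.20.

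The interferon gamma and glycolysis lists leaned slightly towards higher signals after the early start, and the type I interferon list slightly towards lower ones. Of 20 genes of the interferon gamma response 9 were higher and 3 lower without overlap, with a median of 0.105. Of 18 genes of the type I response 3 were higher and 5 lower, with a median of -0.089. Glycolysis genes had 8 of 14 higher and 1 lower, with a median of 0.129. Over all genes 16.5% were higher and 20.4% lower. In each of these sets the median was under 0.2 and no member had an unadjusted p under 0.05.

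**Figure D5:**
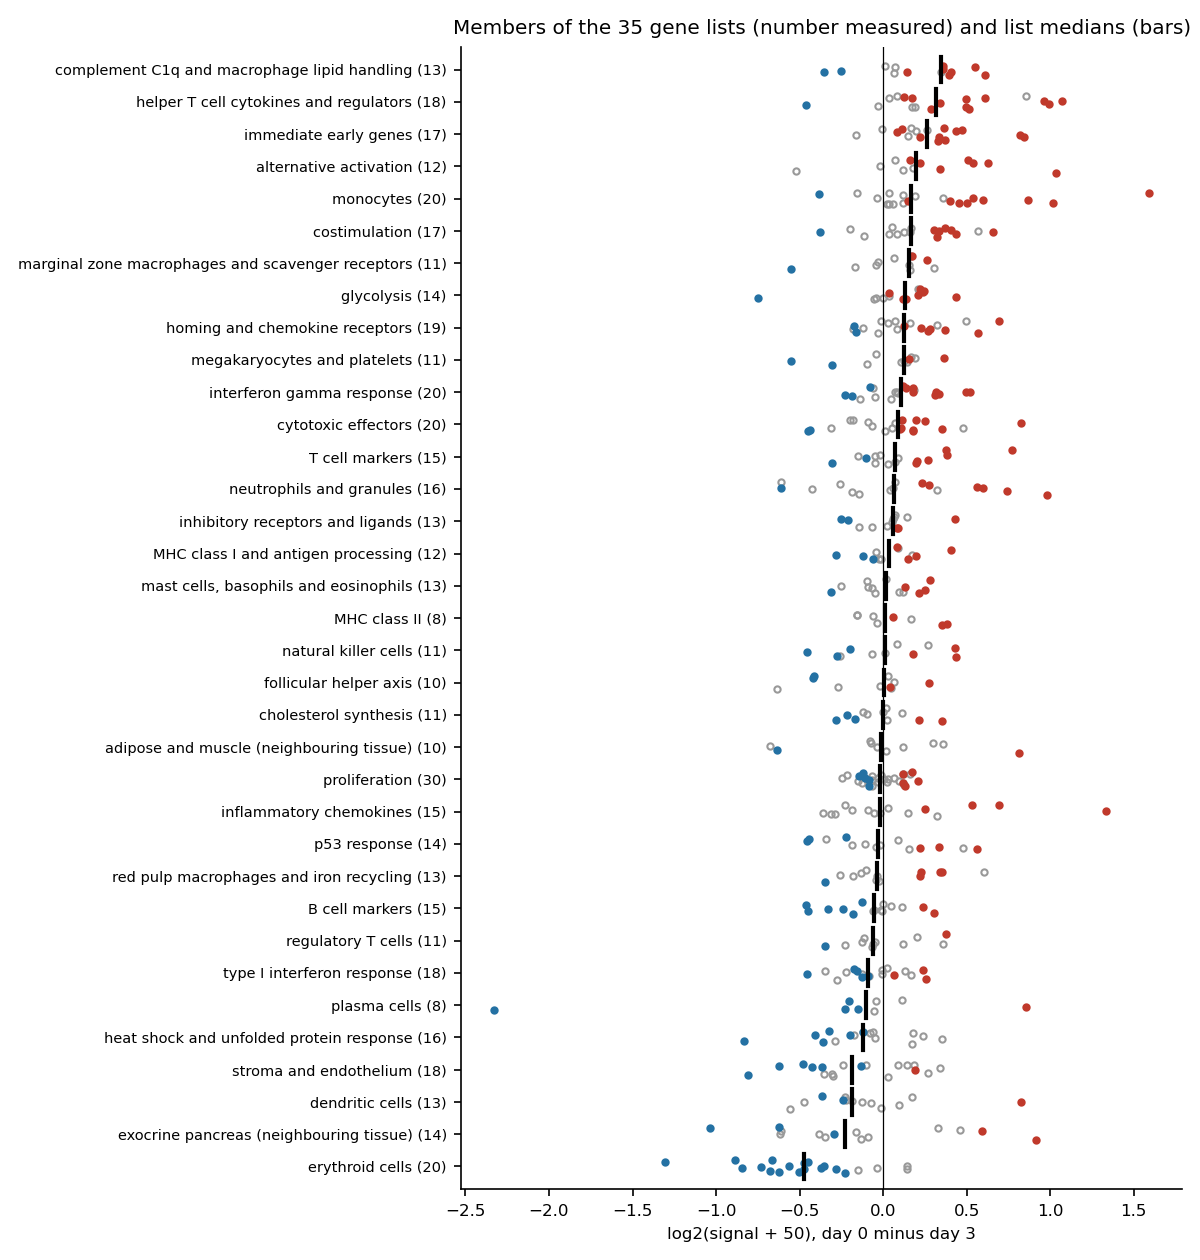
Difference between day 0 and day 3 on the log2(signal + 50) scale for the measured members of 35 gene lists (1 point per gene, number of members in brackets), sorted by the list median (black bar). Filled points are genes whose arrays do not overlap, red where higher and blue where lower on day 0, and open grey points overlap. Erythroid cells have the lowest median (-0.473), and complement C1q with lipid handling (0.348), helper T cell cytokines (0.314) and immediate early genes (0.262) the highest.

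Genes of neighbouring organs were read as a check on dissection. Of 14 measured exocrine pancreas genes 2 were higher and 3 lower on the day 0 arrays without overlap, beside 16.5% and 20.4% of all genes. At any size 10 of the 14 were lower on the day 0 arrays. The list's median was -0.229, beside -0.023 over all genes. Their summed signal was 1674 and 2294 units on the day 0 arrays against 2314 and 2747 on the day 3 arrays, against 4124 and 3942 in the isotype group and 7401 in the syngeneic one. Ctrb1, chymotrypsinogen, read 103.1 and 167.0 units against 256.2 and 408.4 (-1.04 ± 0.28). None of the defining markers measured was at 0, but genes as dim as Gzmd (0.9 units on the syngeneic array) also read above 0. A signal above 0 therefore cannot decide whether neighbouring tissue was carried over. The part of these markers in the other differences was not tested. Of 18 stroma and endothelium genes 1 was higher and 6 were lower without overlap, at signals mostly under 200 units; the largest difference was that of Cdh5 (VE-cadherin) at 38.2 and 11.4 units against 84.2 and 74.0, but a second probe set gave 0.43 in the other direction.

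The remaining largest differences belong to dim genes. Among genes with at least 1 group mean at or above 99.67 units, the 40th percentile of all signals, 37 were at least 2-fold higher without overlap and 65 were lower. Zfp518b read 204.1 and 219.5 units against 27.4 and 19.1 (1.84 ± 0.62), but the isotype arrays read 19.1 and 236.8, as far apart from each other. Raly, an RNA-binding protein, was brighter at 1317 and 1519 units against 469.9 and 547.4 (1.39 ± 0.23, adjusted p 0.670 in limma's fit). Slc2a8, a sugar transporter, read 192.2 and 154.8 units against 34.7 and 34.8 (1.39 ± 0.18). Gtf2ird1, B3gnt3, Dhx38, Krtap3-1 and Mapk7 differed by 1.29 to 1.49 on signals that stayed under 350 units on the 4 arrays.

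On the lower side, Sh3pxd2a, a scaffold of invasive cell protrusions, read 12.6 and 26.0 units against 119.2 and 249.7 (-1.71 ± 0.36). Rarg, a retinoic acid receptor, read 33.3 and 79.2 units against 184.2 and 341.8 (-1.55 ± 0.32), but its second probe set differed by 0.51 ± 0.52. Cyp26a1, which degrades retinoic acid, read 92.1 and 24.2 units against 217.8 and 254.7 (-1.48 ± 0.54), and its isotype arrays read 16.4 and 137.0. Cd1d2, Msrb2, Kifc2, Kcna1, Utf1 and Aldh8a1 differed by -1.54 to -1.39. Of 56 named genes with several probe sets, 25 had a probe set that differed in sign or by more than 2-fold from the one counted.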

How the data were processed

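The authors deposited MAS5 signal intensities of 7 Affymetrix arrays; MAS5 is named in the submitters' processing notes, and its version and settings are not given in the sources used here. Members and gene lists were chosen with earlier results of these data known. Of 22690 probe sets, 64 manufacturer controls were left out. Names came from the platform annotation (20380 probe sets with 1 symbol, 691 with several, 1555 with none); 20351 gene IDs matched RefSeq and 0 symbols changed. Lists used 1 probe set per gene, the one with the highest mean (12393 genes; 516 of 605 list members were measured). Named genes were the 10 largest differences each way among genes at least 2-fold apart without overlap and with a group mean of at least 99.67 units, up to 4 non-overlapping members per list and a few preset genes; 1 item is not reported here. Values were log2(signal + 50). limma 3.58.1 (R 4.3.3) fitted 4 group means over the 7 arrays without a filter, tested on simulated data. Alternatives were other offsets, filters, scaling, arrays left out, the replicate block, the 4 arrays alone and limma's trend and robust options. Tables and figures used Python 3.11.15, pandas 2.3.3 and matplotlib 3.10.9. The number of arrays limits the precision.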

Additional observations from a re-analysis of the deposited data

How the results depend on the processing

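The count of probe sets past the adjusted threshold was 0 in limma's fit, 8 with trend and robust options, 7 after the filter at the 60th percentile, and 0 under every other alternative run, where the smallest adjusted p was 0.0717 (offset of 100). The count at least 2-fold apart, 228, became 1209 with an offset of 16, 34 with an offset of 100 and 27 after the 60th percentile filter; leaving out single arrays gave 228 to 739. The same array numbers did not pair the samples: deviations of same-numbered arrays correlated at 0.0349 between day 0 and day 3, and with the replicate block 0 probe sets passed, the smallest adjusted p was 0.694 and 228 were 2-fold apart. For 159 named genes, 2615 of 2628 alternative values kept their sign and side of the threshold, 5 passed only under the alternative and 8 turned sign, in 5 genes. Most named genes were chosen for arrays that did not overlap, so leaving out an array or changing the offset could not turn their sign. Trend and robust options or left-out isotype arrays leave the difference itself unchanged. The kept signs were therefore largely fixed in advance and are no measure of robustness. With the mean of a gene's probe sets, H2-D1 turned to -0.106, Sc5d to -0.175 and Prf1 to -0.067. Leaving out single arrays gave -0.101 to 0.204 for Prf1, -0.475 to 0.178 for Cd8a and -0.091 to 0.046 for Arg1, which was 0.032 with median centring. The cause was not tested. The median of all probe sets was -0.017, -0.001 after quantile normalization and 0.036 after centring. Dim signals limit what can be read below about 300 units.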

Other observations

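Some probe sets gave opposite orders of the syngeneic and allogeneic arrays for 1 gene or gene cluster, among them globin probe sets compared above. The alpha globin probe set 1417714_x_at read 279.6 units on the syngeneic array and 1699 to 1825 on the isotype arrays, whereas 1452757_s_at of the same cluster read 11809.8 units on the syngeneic array and 3610.5 and 3923 in the isotype group. For H2-D1, a class I histocompatibility gene, 1450170_x_at read 38.7 units on the syngeneic array and 3460.1 and 3456 on the isotype arrays, and 1451784_x_at read 16983 units against 3474 and 3877. The bright probe set 1455869_at, without a gene symbol, read 554.1 and 423.2 units after the early start and 1057 and 1019.8 after the late one, with 1797 and 1683 for isotype and 9088 for syngeneic. Ppp2r1a (1438174_x_at), a phosphatase scaffold subunit, read 1224 and 2235 units on the day 0 arrays against 4201 and 4483 on the day 3 arrays. Rpl37a (1416218_x_at), a ribosomal protein, read 397.1 and 777.2 units against 183.4 and 191.4. The probe sets of Ppp2r1a and Rpl37a carry the suffix x, so their signal cannot be assigned to 1 gene alone.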
